A study of Canis lupus familiaris with 16 samples.

Results

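Cadherins are membrane proteins that join neighboring cells by calcium-dependent binding of repeated extracellular domains. Classical cadherins bind catenins inside the cell and so tie the contact to actin. Protocadherins have other cytoplasmic tails and are best known from the nervous system, while FAT, Dachsous and CELSR proteins are very large cadherins that carry signals for tissue growth and for planar cell polarity, the alignment of cells within a sheet. Cells of mesenchymal origin, from which soft tissue sarcomas arise, are known for cadherins such as CDH11 rather than for the epithelial cadherin CDH1.

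The genes described here were taken by symbol from the table of counts per gene: CDH followed by a number, PCDH, FAT1 to FAT4, DCHS1 and DCHS2, and CELSR1 to CELSR3. Of 46 symbols that matched, CDH2, CDH5 and CDH19 were left out, which left 43 of the 41818 genes in the table. A count of at least 10 in at least 4 tumors was needed for a test, and 23 of the 43 genes met it, as did 15408 of all genes. The other 20 genes are described by their counts alone, so no statement on the 23 holds for the whole family. CDH3, CDH6 and DCHS2 reached the minimum in exactly 4 tumors, and CDH7 and PCDHAC1 missed it with 3.

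RNA came from formalin-fixed, paraffin-embedded sections of 16 spontaneous tumors of dogs, all archived diagnostic material, and no treatment or normal tissue is part of the comparison. By the molecular identity given for each tumor, 4 were fibrosarcomas (FS; dogs of 9 to 13 years; S1-02, S1-11, S1-12 and S2-06), 6 were peripheral nerve sheath tumors (PNST; 8 to 13 years; S1-03, S1-04, S1-05, S1-09, S1-10 and S2-07) and 6 were perivascular wall tumors (PWT; 2 to 14 years; S1-07, S2-03, S2-04, S2-08, S2-09 and S2-11). These identities were assigned partly from gene expression of the same tumors, since by histology S1-10 was a PWT and S2-08 an FS, so a difference between types is not independent of the grouping. S1-04 and S1-05 carry identical clinical labels and may come from 1 dog. The prefix S1 or S2, taken as a possible sequencing group, splits FS 3 to 1, PNST 5 to 1 and PWT 1 to 5. Each tumor had between 507728 counts (S1-12) and 4311876 counts (S1-03) on genes, and levels are given as counts per 1000000 counts (CPM) after scaling by trimmed mean of M-values (TMM). A level set by 3 counts, used as the floor of detection, was 0.853 CPM in S1-03 and 5.52 CPM in S1-12. Where levels are followed by ±, the value is the SD over the tumors of that type.

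Markers of other cells differed between tumors and are set beside the results they move with. The summed level of 12 epidermal markers ran from 5.57 to 1163 CPM and exceeded 500 CPM in 5 tumors (S1-02 and S1-12 of FS, S1-04 and S1-05 of PNST, and S2-03 of PWT), although KRT5 had no counts in 8 of the 16 tumors. Of 10 skeletal muscle markers the sum reached 10345 CPM in S1-11, against 1217 in S1-07, 624 in S2-09 and at most 90.7 in the other 13 tumors. The sum of 6 fibroblast markers was 98231 CPM in S1-11 and lay between 8996 and 35216 CPM in the other 15. The sum of 7 neuronal markers was 5.52 to 60.3 CPM in FS, 48.1 to 732 CPM in PNST and 39.2 to 325 CPM in PWT, and STMN2 and SNAP25 had no counts in any FS. Of 9 Schwann cell markers 4 were tested and 0 were called in PNST, where 0% of all 15408 tested genes were called. That count therefore says nothing about these markers. Their summed level was 26.8 to 94.4 CPM in PNST, 22.8 to 96.5 CPM in FS and 16.4 to 45.2 CPM in PWT. Of 9 pericyte and smooth muscle markers, all were tested and 0 were called in PWT, beside 2.12% of all genes. ACTA2, CNN1 and MCAM were higher in FS, beside 5.78% of all genes called higher there. The summed level of these 9 markers was 616 to 1882 CPM in FS, 440 to 924 CPM in PNST and 425 to 863 CPM in PWT. The part of this sum in the results for FS was not tested. In these bulk samples fewer cells of a kind and less RNA per cell cannot be told apart.

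FS was compared with the 12 tumors of both other types pooled, which asks what sets this type apart. CDH11, CDH24 and PCDH18 were higher in FS, and CELSR3 was lower. A gene is called here when edgeR's quasi-likelihood test gave it a p below 0.05 after Benjamini-Hochberg adjustment over all 15408 genes and its absolute log2 fold change was above 1. The 4 called genes made up 17.4% of the 23 tested, beside 9.46% of all genes (5.78% higher and 3.68% lower). Without S1-11, 22 of the 23 genes were tested and 0 were called in either direction, while 911 of all genes were called. Without it the log2 fold changes of CDH11 and PCDH18 were smaller, and those of CDH24 and CELSR3 were close to the full fit. CELSR3 was also lost without S1-02 or S1-12, and CDH24 without S1-12. S1-11 is the FS with the most fibroblast and skeletal muscle transcripts, and their part in the calls was not tested. With tumors grouped by histology the calls also fell to 0, where 1.33% of all genes were called. The p-values set a mean difference against the spread between tumors, within groups assigned partly from expression of the same tumors.

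CDH11, or OB-cadherin, is a type II classical cadherin of osteoblasts and fibroblast-like cells. Its level in FS was 63.5 CPM in S1-02, 790 in S1-11, 331 in S1-12 and 324 in S2-06. In PNST it ran from 65.0 to 158 CPM with a median of 116, and in PWT from 19.4 to 170 CPM with a median of 91.0. S1-11, S1-12 and S2-06 thus lay above each of the other 12 tumors, whereas S1-02 lay below all PNST. The log2 fold change was 1.86 (SE 0.44, adjusted p = 0.0103), and it was 1.19 (SE 0.45, adjusted p = 0.123) without S1-11. Among S1 tumors alone the difference was 1.68 (SE 0.53, adjusted p = 0.0891) and did not pass. With S2-06 as the only FS among S2 tumors, no within-prefix test is given there, here or for the genes below. Without the 5 tumors with epidermal markers it was 2.49 (SE 0.49, adjusted p = 0.00885), and without the 3 tumors with skeletal muscle markers 1.23 (SE 0.49, adjusted p = 0.162).

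CDH24 is another type II classical cadherin that binds catenins. It gave 16, 27, 13 and 15 counts in S1-02, S1-11, S1-12 and S2-06, which correspond to 5.74, 14.8, 23.9 and 7.13 CPM. Its level was 2.80 to 5.13 CPM in PNST (median 3.52) and 0 to 4.09 CPM in PWT (median 1.63), with no count in S2-04 and S2-11. CDH24 was the only tested member whose 4 FS all lay above the other 12 tumors, a pattern that 1.56% of all genes showed. The gap was narrow for counts this low, since the exact 95% Poisson interval of S1-02 (3.28 to 9.32 CPM) overlapped that of S1-09 (2.99 to 8.21 CPM), the highest of the others. These intervals cover counting error only. The log2 fold change was 2.05 (SE 0.53, adjusted p = 0.0179), 1.93 (SE 0.61, adjusted p = 0.0689) without S1-11 and 1.63 (SE 0.56, adjusted p = 0.0753) without S1-12. It was 1.94 (SE 0.64, adjusted p = 0.083) without the 5 tumors with epidermal markers. Over the 16 tumors CDH24 followed the summed fibroblast markers (Spearman's rho 0.80), of which COL1A1, COL3A1 and LUM were higher in FS, 0 were lower and all 6 were tested. The part of fibroblast content in the CDH24 result was not tested.

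PCDH18, a delta-2 protocadherin, was at 80.7 CPM in S1-02, 168 in S1-11, 70.0 in S1-12 and 24.2 in S2-06. In PNST it ran from 7.68 to 34.9 CPM (median 14.8) and in PWT from 5.24 to 60.5 CPM (median 12.2). The 3 FS with the prefix S1 lay above all other tumors, and S2-06 lay within the range of both other types. The log2 fold change was 2.14 (SE 0.48, adjusted p = 0.00826). It was 2.61 (SE 0.46, adjusted p = 0.0125) among S1 tumors. Without S1-11 the change was 1.57 (SE 0.52, adjusted p = 0.0847).

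CELSR3, a seven-pass cadherin known for axon guidance and planar cell polarity, went the other way. It was at 5.38 CPM in S1-02, 13.2 in S1-11, 9.21 in S1-12 and 38.0 in S2-06, against 59.7 to 194 CPM in PNST (median 71.1) and 16.7 to 64.4 CPM in PWT (median 37.7). All 4 FS lay below all 6 PNST, but S2-06 lay inside the range of PWT. The log2 fold change was -2.06 (SE 0.59, adjusted p = 0.0323). Among S1 tumors it was -3.42 (SE 0.54, adjusted p = 0.00882). The call was lost without any 1 of S1-02, S1-11 and S1-12, where the change was -1.74, -1.97 and -1.91 with adjusted p = 0.0909, 0.0983 and 0.0812. The neuronal markers TUBB3 and STMN2 were also lower in FS (2 of 3 tested, of 7 listed), and the part of neuronal content in this result was not tested.

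**Figure D1:**
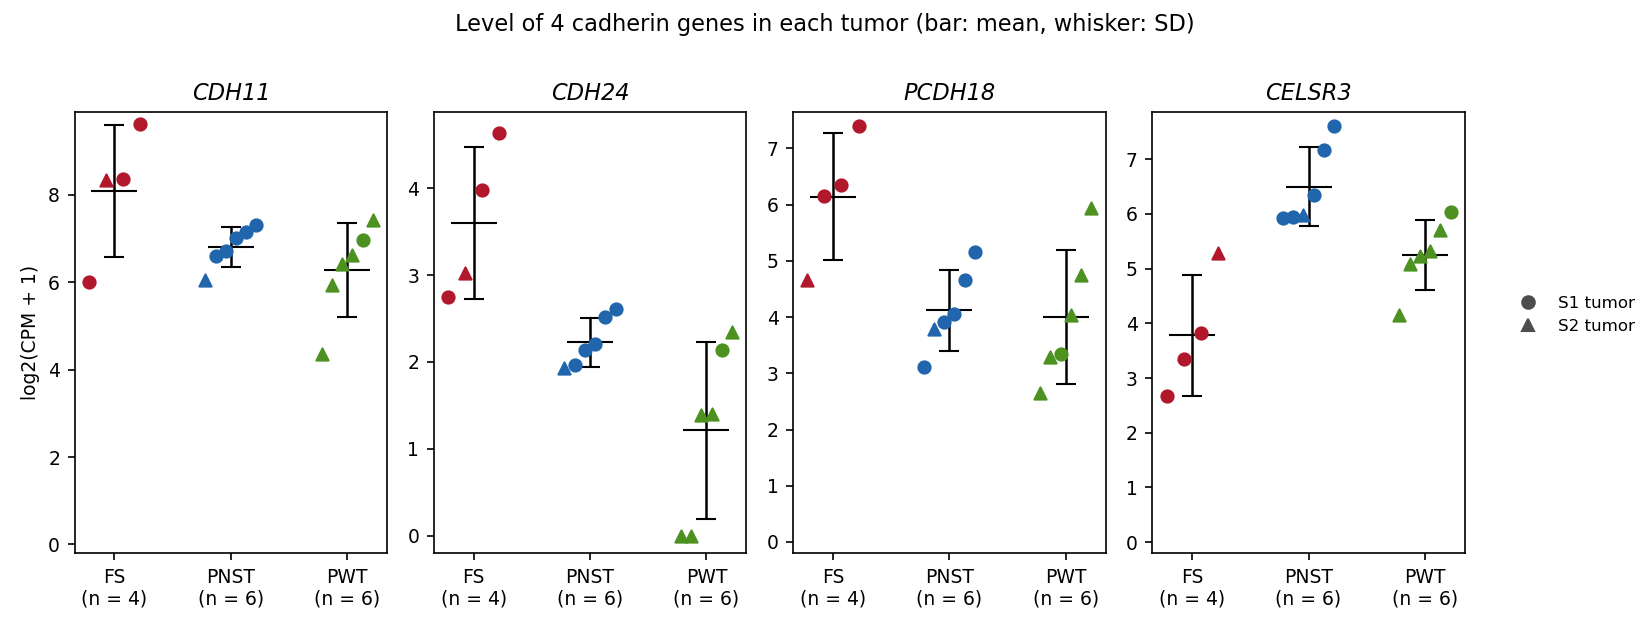
Level of CDH11, CDH24, PCDH18 and CELSR3 as log2(CPM + 1) in each tumor by molecular type, with circles for S1 and triangles for S2 tumors, a bar at the mean and whiskers of 1 SD. S2-06, the only FS drawn as a triangle, lies within the range of the other types for PCDH18 and CELSR3, and the 4 FS stand above all others only for CDH24.

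The other tested classical cadherins did not pass in FS. CDH6, known from the kidney and neural crest, was at 15.1, 9.87, 1.84 and 1.90 CPM in S1-02, S1-11, S1-12 and S2-06 and at most 6.54 CPM in any other tumor, so that 2 of the 4 FS stood above the rest (log2 fold change 1.59, SE 0.66, adjusted p = 0.135). CDH18, a cadherin of neurons, had a mean of 2.40 ± 2.85 CPM in FS, 9.03 ± 5.98 in PNST and 7.16 ± 8.35 in PWT, with a log2 fold change in FS of -1.73 (SE 0.95, adjusted p = 0.272). The epithelial cadherins CDH1 and CDH3 had changes of 1.18 (SE 0.82, adjusted p = 0.397) and 1.24 (SE 0.82, adjusted p = 0.368), with 95% intervals from -0.42 to 2.78 and from -0.36 to 2.84.

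CDH13, or T-cadherin, is held to the membrane by a lipid anchor, lacks the catenin-binding tail and is known from vessel walls. It was at 275 CPM in S1-02, 137 in S1-11, 22.1 in S1-12 and 181 in S2-06, at 43.5 to 114 CPM in PNST (median 66.1) and at 23.9 to 103 CPM in PWT (median 47.2). S1-02, S1-11 and S2-06 stood above all tumors of other types. S1-12, the tumor with the fewest counts, was the lowest of all 16. Its level came from 12 counts and was close to the lowest PWT at 23.9 CPM. The log2 fold change of 1.25 (SE 0.42, adjusted p = 0.0638) did not pass, and it was 1.60 (SE 0.36, adjusted p = 0.0108) without S1-12. CDH23, which with PCDH15 forms the tip links of inner ear hair cells, had 28.0 ± 15.8 CPM in FS and a change of 0.48 (SE 0.52, adjusted p = 0.615).

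Among delta protocadherins, the delta-1 member PCDH7 was at 137, 117, 219 and 114 CPM in S1-02, S1-11, S1-12 and S2-06, at 36.8 to 123 CPM in PNST (median 59.8) and at 8.98 to 109 CPM in PWT (median 17.8). All FS lay above all PWT, and S1-04 of PNST lay above 2 of the FS. Its change of 1.36 (SE 0.51, adjusted p = 0.0968) did not pass. PCDH1, known from epithelia of the airway and skin, had the opposite sign, with 24.6 ± 9.95 CPM in FS, 47.2 ± 24.2 in PNST and 55.3 ± 31.2 in PWT (log2 fold change -1.04, SE 0.43, adjusted p = 0.13). The delta-2 members PCDH17 and PCDH19, both known from neurons, had changes of -0.59 (SE 0.62, adjusted p = 0.608) and 0.86 (SE 0.62, adjusted p = 0.417). PCDH19 was spread widely within FS, from 8.60 CPM in S1-02 to 137 in S2-06, the highest of the 16 tumors. PCDH12, known from endothelium, had low levels throughout (0.748 to 13.9 CPM) and a change of -0.28 (SE 0.53, adjusted p = 0.796).

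FAT4 and DCHS1 form a receptor and ligand pair that acts between cells. Neither differed detectably in FS. FAT4 was at 560 ± 379 CPM in FS, 885 ± 350 in PNST and 788 ± 471 in PWT (log2 fold change -0.58, SE 0.53, 95% interval -1.61 to 0.46, adjusted p = 0.54), and DCHS1 at 178 ± 51.0, 165 ± 39.4 and 136 ± 81.7 CPM (0.24, SE 0.37, 95% interval -0.48 to 0.95, adjusted p = 0.745). FAT1, a large cadherin that binds actin regulators at the cell edge, was at 866 ± 383 CPM in FS with a change of 0.26 (SE 0.40, adjusted p = 0.746), and FAT2 at 27.0 ± 11.0 CPM with 0.04 (SE 0.46, adjusted p = 0.971). FAT3 was at 98.7 CPM in S1-11 and at 12.5, 3.68 and 0 CPM in S1-02, S1-12 and S2-06 (log2 fold change 1.38, SE 0.79, adjusted p = 0.29). DCHS2 had 1, 0, 2 and 0 counts in S1-02, S1-11, S1-12 and S2-06 and 0.56 to 11.4 CPM in the other 12 tumors, and its change of -3.22 (SE 1.12, adjusted p = 0.0735) did not pass. At these depths a level of DCHS2 under the floor of 3 counts was not resolved in FS. CELSR1 and CELSR2 had positive changes of 1.49 (SE 0.70, adjusted p = 0.187) and 0.41 (SE 0.77, adjusted p = 0.792), while CELSR3 was lower, and the difference between the 3 genes was not tested.

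At an unadjusted p under 0.05, 10 of the 23 genes stood out in FS, beside 25.4% of all genes. Of these CDH6, CDH11, CDH13, CDH24, CELSR1, PCDH7 and PCDH18 were higher, and CELSR3, DCHS2 and PCDH1 lower. The median log2 fold change of the 23 genes was 0.48, beside 0.0039 over all genes, and 16 of 23 were above 0, beside 50.2% of all genes. Genes that pass a minimum in 4 tumors can do so through the 4 FS alone, so these counts are a description of the tested members.

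**Figure D2:**
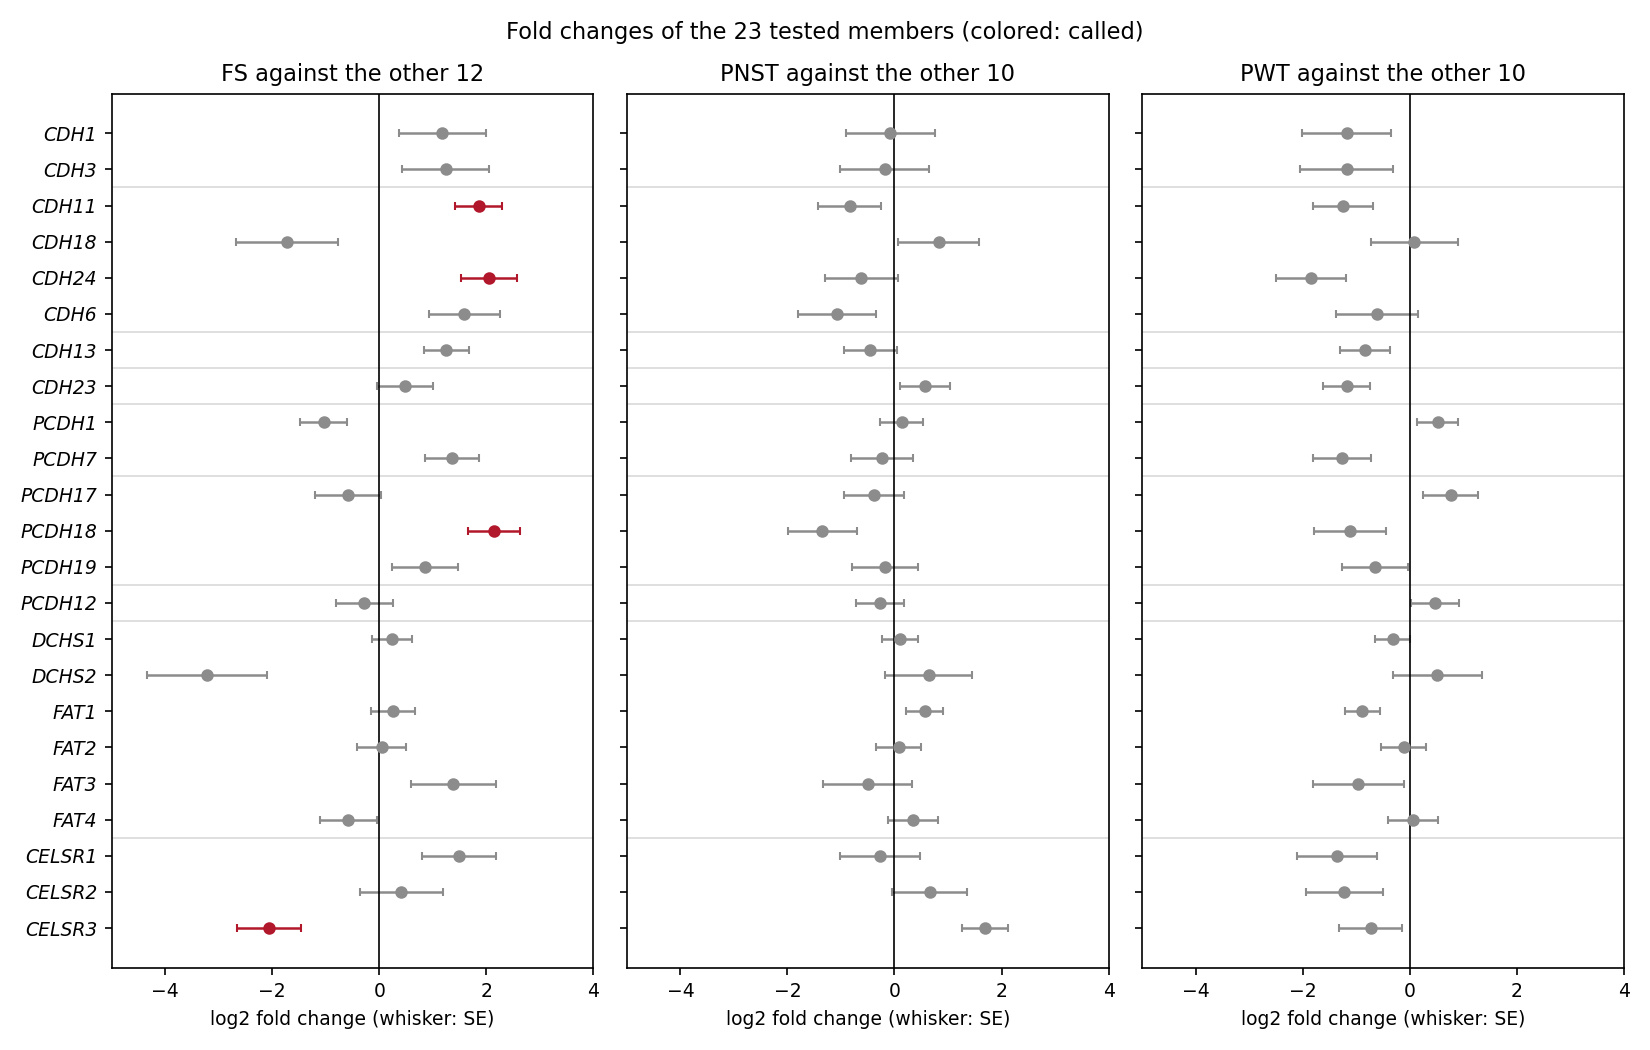
Log2 fold change with its SE for the 23 tested genes, grouped by family with lines between families, in FS, PNST and PWT, each against both other types. Colored points passed the test. All 4 lie in the FS panel (CDH11, CDH24, PCDH18 and CELSR3), and most points of the PWT panel lie left of 0.

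PNST was compared with FS and PWT pooled, a contrast that shares all 16 tumors with the one above and is not independent of it. None of the 23 genes was called, and 0% of all 15408 genes were. CELSR3 showed the smallest p of the members. Its level was 59.7 to 194 CPM in PNST, with S1-10 and S1-09 highest at 194 and 142, and S1-07 of PWT at 64.4 CPM was the only other tumor inside that range. The log2 fold change was 1.68 (SE 0.43, 95% interval 0.85 to 2.52, adjusted p = 0.141), and DESeq2, another test on counts, called it higher at 1.68 (SE 0.45, adjusted p = 0.0212), beside 0.476% of all genes called higher by that tool. S1-10 was a PWT by histology, and with tumors grouped by histology the edgeR change was 0.81 (SE 0.57, adjusted p = 0.685). S1-09 and S1-10 also had the highest neuronal marker sums of PNST, and over the 16 tumors CELSR3 followed that sum with a Spearman's rho of 0.63. The median neuronal sum was 102 CPM in PNST and 136 CPM in PWT, with 325 CPM in S2-09 of PWT. With the pericyte and smooth muscle sum the rho of CELSR3 was -0.61. The part of neuronal content in this pattern was not tested.

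PCDH18 was the other member with an unadjusted p under 0.05 in PNST (2 of 23, beside 15.7% of all genes), with a change of -1.35 (SE 0.64, adjusted p = 0.317) that includes the high FS among the comparators. The changes of the other 21 genes lay between -1.07 (CDH6, SE 0.72, adjusted p = 0.478) and 0.82 (CDH18, SE 0.76, adjusted p = 0.611). FAT1 was at 951 ± 389 CPM with a change of 0.56 (SE 0.35, 95% interval -0.12 to 1.24, adjusted p = 0.44), CDH23 at 26.7 ± 16.7 CPM with 0.57 (SE 0.46, adjusted p = 0.555), and CELSR2 at 15.5 ± 15.4 CPM with 0.66 (SE 0.69, adjusted p = 0.664). CDH11 had -0.84 (SE 0.59, adjusted p = 0.493). The median of the 23 genes was -0.18, beside -0.06 over all genes, and 10 were above 0, beside 45.4% of all genes.

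PWT was compared with FS and PNST pooled. None of the 23 genes was called, beside 2.12% of all genes, although most had lower means in PWT. Of the members, 5 had an unadjusted p under 0.05, and all 5 had negative changes (21.7% of the 23, beside 22.4% of all genes in either direction and 11.8% lower). These were CDH11, CDH23, CDH24, FAT1 and PCDH7. Only 6 of 23 changes were above 0, beside 44.9% of all genes, and the median was -0.83, beside -0.08. The prefix is unequally spread here, with 5 of 6 PWT in S2 and 8 of the 10 comparators in S1. With the prefix as a term in the fit the median of the 23 genes was -0.35, beside -0.02 over all genes. In that fit 0% of all genes were called. The summed level of the 6 fibroblast markers was 8996 to 20970 CPM in PWT, 17591 to 98231 CPM in FS and 13971 to 35216 CPM in PNST, and 1 of the 6, COL1A1, was called lower in PWT (log2 fold change -2.03, SE 0.52, adjusted p = 0.0458). Over the 16 tumors Spearman's rho with the fibroblast sum was 0.80 for CDH24, 0.66 for PCDH7, 0.60 for FAT1, 0.58 for CDH23 and 0.46 for CDH11. The part of fibroblast content in these lower levels was not tested.

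Of these, FAT1 was at 497 ± 220 CPM in PWT, from 300 to 786 with a median of 400, against 470 to 1420 CPM in PNST (median 920). The groups overlap. The change was -0.89 (SE 0.32, adjusted p = 0.122) against both types and 0.94 (SE 0.36, adjusted p = 0.168) for PNST against PWT. CDH23 was at 6.73 to 26.2 CPM in PWT with a median of 8.19, against 12.9 to 44.4 CPM in FS and 7.84 to 49.7 CPM in PNST (log2 fold change -1.17, SE 0.44, adjusted p = 0.128). PCDH7 had a change of -1.26 (SE 0.54, adjusted p = 0.177), with 3 of the 6 PWT (S2-03, S2-09 and S2-11) below 16 CPM and S2-04 at 109. CDH11 had -1.25 (SE 0.56, adjusted p = 0.194) and CDH24 -1.84 (SE 0.65, adjusted p = 0.113), and DESeq2 called the latter lower at -1.89 (SE 0.63, adjusted p = 0.0364), beside 2.77% of all genes called lower by that tool.

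Members with positive changes in PWT were small in number. PCDH17 was at 45.0 ± 33.4 CPM (change 0.77, SE 0.52, adjusted p = 0.392), PCDH1 at 55.3 ± 31.2 CPM (0.52, SE 0.39, adjusted p = 0.439), DCHS2 at 5.34 ± 4.74 CPM (0.52, SE 0.83, adjusted p = 0.748) and PCDH12 at 5.98 ± 4.74 CPM (0.48, SE 0.45, adjusted p = 0.547). FAT4 and CDH18 were close to 0, with 0.06 (SE 0.47, 95% interval -0.87 to 0.99) and 0.08 (SE 0.81, 95% interval -1.50 to 1.67). None of these changes passed the test.

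In the direct contrast of PNST with PWT, with FS kept only for the estimate of the spread, 0 of 23 genes were called, beside 0.169% of all genes. CELSR3 had a change of 1.30 (SE 0.43, 95% interval 0.46 to 2.14, adjusted p = 0.128), CDH23 1.16 (SE 0.48, adjusted p = 0.2) and FAT1 0.94, and these 3 were the members with an unadjusted p under 0.05, beside 19.6% of all genes. CELSR2 had 1.23 (SE 0.78, adjusted p = 0.39), CDH24 0.99 (SE 0.58, adjusted p = 0.349) and PCDH7 0.77 (SE 0.54, adjusted p = 0.44). For CDH11 the interval of the difference ran from -0.61 to 1.26 and for FAT4 from -0.85 to 1.18, so differences of up to about that size were not excluded.

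**Figure D3:**
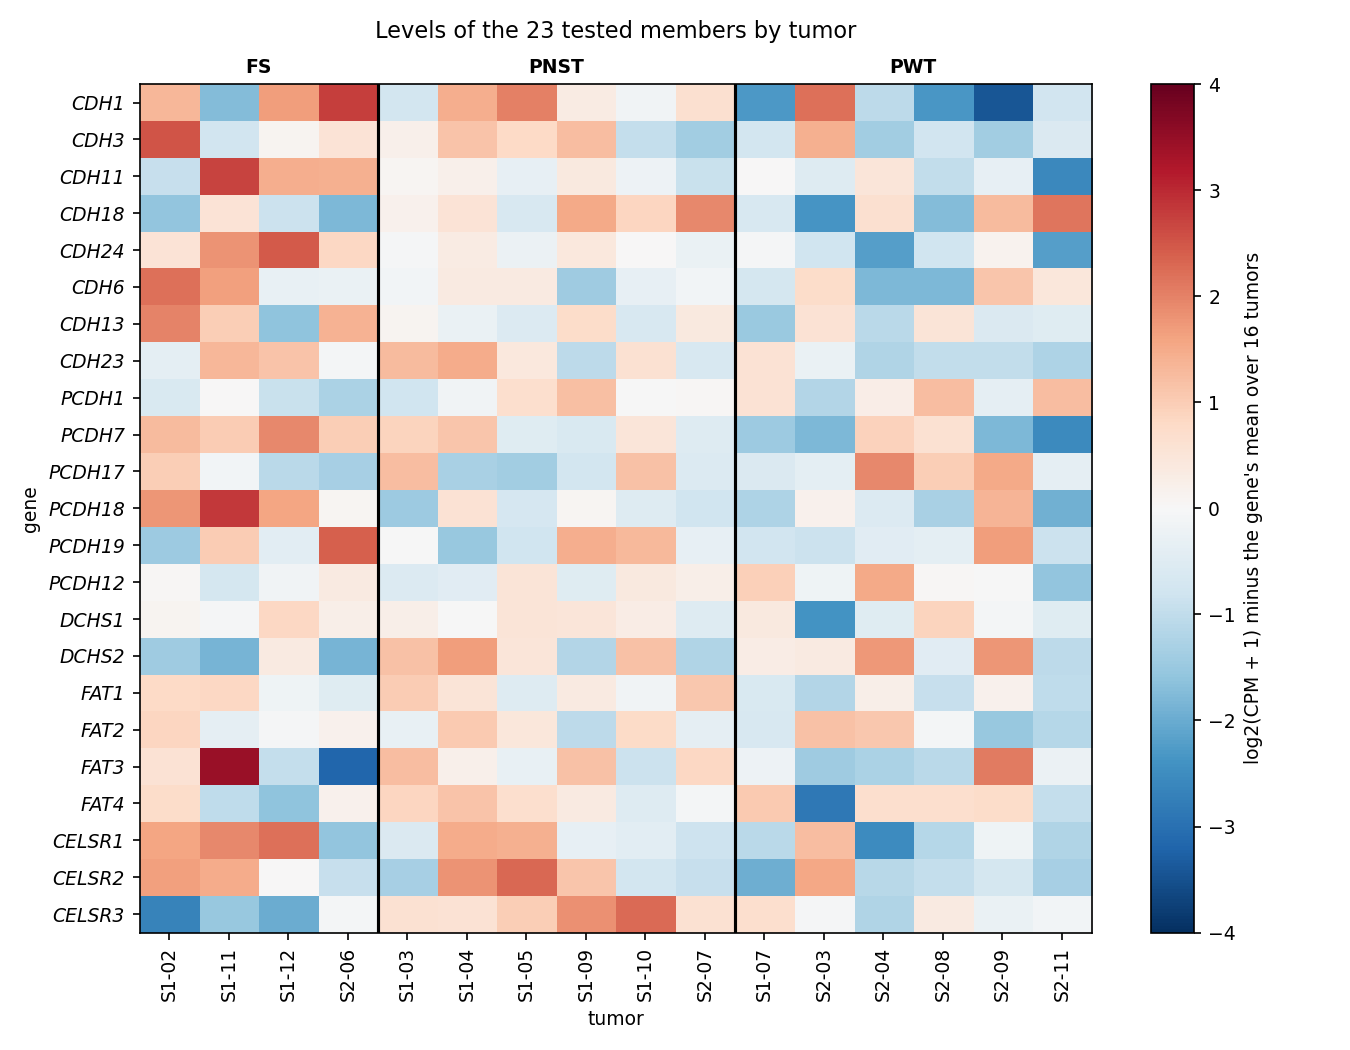
Level of the 23 tested genes (rows, by family) in the 16 tumors (columns, by type), as log2(CPM + 1) minus the mean of the gene over all tumors. Single tumors stand out within their type, such as S1-11 for CDH11, PCDH18 and FAT3, S2-06 for CDH1 and PCDH19, and S2-03 for CDH1, CDH3, CELSR1 and CELSR2 within PWT.

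Several members known from epithelia were high in tumors with many epidermal transcripts. CDH1, E-cadherin, is the adhesion protein of epithelia, and CDH3, P-cadherin, that of basal epidermis and hair follicles. CELSR1 aligns epidermal cells and hairs, and FAT2 is known from squamous epithelium. In the 5 tumors with epidermal sums above 500 CPM, CDH1 was at 25.8 CPM in S1-02, 33.1 in S1-12, 28.0 in S1-04, 41.5 in S1-05 and 48.1 in S2-03. In the other 11 tumors it was between 0 and 15.7 CPM, with 1 exception. The exception, S2-06, had the highest CDH1 of all, at 71.3 CPM from 150 counts, with an epidermal sum of 43.2 CPM. CDH1 in FS was thus 25.8, 2.19, 33.1 and 71.3 CPM in S1-02, S1-11, S1-12 and S2-06, and without the 5 tumors its change in FS was 2.59, with an adjusted p of 0.0919 and 2 FS left.

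CELSR2 was at 24.7, 7.37, 27.3, 39.7 and 23.0 CPM in those same 5 tumors in the same order, and at 1.14 to 4.09 CPM in 9 of the others, with S1-11 at 21.9 and S1-09 at 16.6. CELSR1 was at 12.5 to 25.8 CPM in the 5, and of the others only S1-11, at 20.8 CPM, exceeded 4.09. CDH3 reached 14.0 CPM in S1-02, from 39 counts, and was at most 6.06 CPM elsewhere. FAT2 was less tied to these tumors, with 48.8 CPM in S2-04 at an epidermal sum of 5.57 CPM. Spearman's rho with the epidermal sum over the 16 tumors was 0.79 for CDH1, 0.77 for CELSR2, 0.64 for CELSR1, 0.61 for CDH3 and 0.48 for FAT2. The values share each tumor's depth and scaling. CELSR1 was closer to the melanocyte (0.74), fibroblast (0.74) and Schwann cell (0.68) sums than to the epidermal sum, and FAT2 to the melanocyte and leukocyte sums (both 0.51). How far epidermis within the sections contributes to these genes was not tested.

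**Figure D4:**
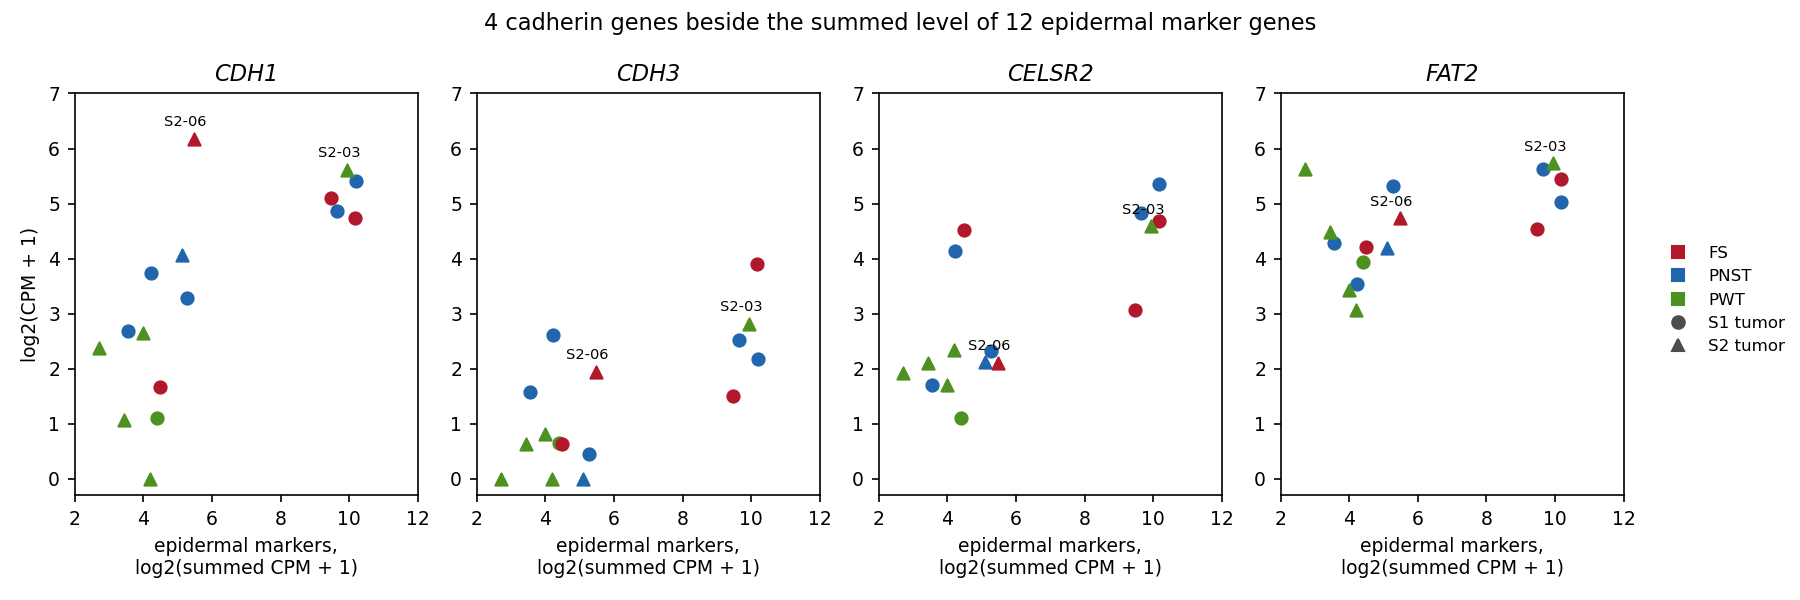
CDH1, CDH3, CELSR2 and FAT2 as log2(CPM + 1) against the summed CPM of 12 epidermal marker genes on the same scale, with 1 point per tumor colored by type. The 5 tumors at the right have epidermal sums of 709 to 1163 CPM, and S2-06 has the highest CDH1 (71.3 CPM) with a sum of 43.2 CPM.

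Over the 253 pairs of tested members the median Spearman's rho across tumors was 0.04, with 8 pairs above 0.6 and 2 below -0.6. The closest pairs were CELSR1 with CELSR2 (0.80), CELSR1 with PCDH18 (0.75), CDH24 with PCDH18 (0.73) and CELSR2 with PCDH18 (0.71). CDH1 and CDH3, which have 1 gene between them in the reference gene table, had 0.66, FAT1 and FAT3 0.68, and CDH11 and CDH24 0.61. The pairs at the other end were CDH13 with DCHS2 (-0.72) and CDH1 with PCDH17 (-0.69). These are descriptions over 16 tumors of 3 types, and a few tumors with high values can set them.

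Partner genes of the cadherins were read in the same fits, with the lists chosen by role. In FS 4 of 43 tested partner genes were called, all higher, a share near the 9.46% of all genes. Of 17 tested catenin, plaque and nectin genes 1 was higher in FS and 0 lower, of 8 desmosomal genes 1 and 0, of 14 genes of planar cell polarity and FAT-Dachsous signaling 2 and 0, and of 4 cadherin-cleaving protease genes 0 and 0. NECTIN3, an immunoglobulin-type partner at adherens junctions, was at 15.6 ± 3.60 CPM in FS, 5.45 ± 3.45 in PNST and 6.55 ± 2.88 in PWT (log2 fold change 1.40, SE 0.37, adjusted p = 0.02). DSG2, a desmosomal cadherin, was at 67.2 ± 47.8, 5.45 ± 6.22 and 4.30 ± 4.40 CPM (3.77, SE 0.64, adjusted p = 0.00129). VANGL2 and PTK7, membrane proteins of planar cell polarity, had changes of 2.62 (SE 0.76, adjusted p = 0.0335) and 3.36 (SE 0.47, adjusted p = 0.000287), with PTK7 at 113 ± 71.9 CPM in FS, 14.8 ± 8.39 in PNST and 6.53 ± 3.80 in PWT. The catenin genes did not pass in FS, with CTNNB1 at 437 ± 167, 746 ± 416 and 755 ± 305 CPM (log2 fold change -0.78, SE 0.39, adjusted p = 0.213). In the other 3 comparisons 0 partner genes were called.

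Of the 20 genes under the count minimum, CDH9 and PCDHB1 had no count in any tumor, and CDH4, CDH8 and CDH26 never had more than 1. CDH16, known from kidney, reached 2, PCDH10 and PCDH15 reached 3, PCDH20 reached 4, and CDH15, the cadherin of muscle precursors, reached 6, in S1-11. CDH17, known from intestine, reached 10 in S1-02, and CDH22, known from brain, 12 in S1-04.

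The rest were carried by 1 or a few tumors. The delta-1 member PCDH9 gave 101 counts in S1-02 (36.2 CPM) and 15 in S1-11, and at most 3 in any other tumor. The type II members CDH12, CDH7 and CDH10 were also highest in S1-02, with 69, 51 and 15 counts. CDH12 had 23 counts in S2-07, and CDH7 had 19 in S1-09 and 12 in S2-08. CDH20, known from neural crest, had 16 counts in S1-09 and 13 in S2-08. Without the count minimum PCDH9, CDH10 and CDH16 were called higher in FS as well, 6 members in all, beside 3.80% of all genes. With DESeq2 PCDH9, CDH13 and CDH17 were added (6 members, beside 6.13% of all genes) and DCHS2 was added to the lower genes (2 members, beside 3.70%). The calls of PCDH9, CDH10, CDH16 and CDH17 rest on S1-02 and S1-11 or on a handful of counts.

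The 4 clustered protocadherins in the table, PCDHA13, PCDHAC1, PCDHAC2 and PCDHB1, are variants of gene clusters in which alpha members share their last exons, so reads on shared exons can be lost or split in counting and their counts are uncertain. PCDHAC1 had 32 counts in S1-03, 31 in S1-09 and 10 in S1-04, and at most 7 elsewhere. These 32 and 31 counts correspond to 9.10 and 9.35 CPM. PCDHAC2 had 19 counts in both S1-03 and S1-09, and PCDHA13 had 7 in both. Per CPM, PCDHA13 was highest in S2-07, at 2.80 from 5 counts, and stood at 2.79 in S2-04 from 2 counts.

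**Figure D5:**
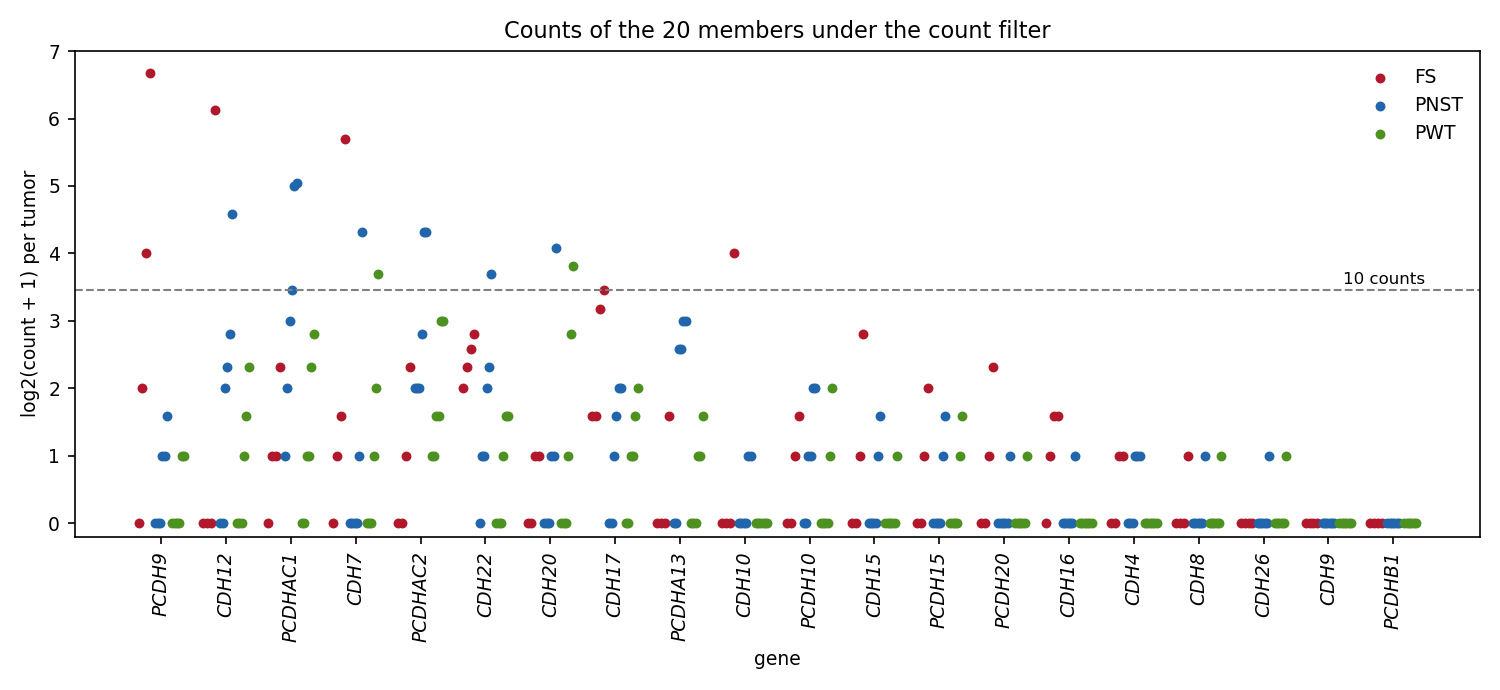
Counts of the 20 genes under the count minimum, as log2(count + 1), with 1 point per tumor, colored by type and ordered by total count, and a dashed line at 10 counts. PCDH9, CDH12, CDH7 and CDH10 have their highest point in the FS S1-02, and PCDHAC1 and PCDHAC2 in PNST.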

How the data were processed

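RNA from 16 canine soft tissue sarcomas, extracted from formalin-fixed, paraffin-embedded sections, was depleted of ribosomal RNA and sequenced on an Ion Proton. The authors aligned reads to ROS-canfam-01 with STAR2 and deposited raw counts per gene from HTSeq, without normalization. Tool versions and the strand setting are not given in the sources used here, so overlapping genes are uncertain. The 9 S1 tumors have 3 run columns each and the 7 S2 tumors 1, and runs were summed per tumor. Rows that name no gene were left out of totals: per tumor 41.8% to 66.7% of the listed reads lay outside genes, 9.11% to 31.6% had several alignments and 0.410% to 1.68% were ambiguous.

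Totals on genes were 507728 to 4311876, so that 1 count was worth 0.284 to 1.84 CPM. Counts were scaled by TMM and tested with edgeR 4.0.16 (glmQLFit and glmQLFTest, R 4.3.3) on the 15408 genes that reached 10 counts in 4 or more tumors, with Benjamini-Hochberg adjustment. SE is the absolute log2 fold change over the square root of F, and 95% intervals are the estimate ± 1.96 SE. Each type was set against both others pooled, and PNST against PWT within a fit of 3 groups. The code was tested on simulated data. Alternatives were other scalings and filters, DESeq2 1.42.0, groups by histology, the prefix as a term or alone, S1-04 and S1-05 as 1 sample, single tumors left out and, added after the data were seen, tumors with epidermal or skeletal muscle markers (summed CPM above 500) left out.

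The members and lists were chosen with earlier results of these data known. Named are all called members, then those with the smallest p up to 20 per comparison, the 2 of highest mean CPM per family, and untested members with their counts. Symbols in the reference gene table (another build, UU_Cfam_GSD_1.0) matched 42 of the 43 members and served for gene order alone.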

Additional observations from a re-analysis of the deposited data

Results flagged for a closer look

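In 9 of 69 groups of 1 gene and 1 type, a single tumor stood apart from the others by Dixon's criterion. The rate of about 1 in 20 for this criterion holds for normally distributed values in independent groups. Here it was applied to CPM, and the groups share the same tumors, so 9 of 69 cannot be compared with that rate. In PWT, S2-03 stood apart for CDH1 (48.1 CPM, others at most 5.24), CDH3 (6.06 CPM, others at most 0.748), CELSR1 (12.5 CPM, others at most 4.09) and CELSR2 (23.0 CPM, others at most 4.09). Its epidermal marker sum was 980 CPM, against at most 19.9 CPM in the other 5 PWT.

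Also in PWT, S2-09 stood apart for FAT3 (37.6 CPM, others at most 6.84), PCDH18 (60.5 CPM, others at most 25.8) and PCDH19 (82.6 CPM, others at most 19.1). In FS, S1-11 stood apart for FAT3 (98.7 CPM, others at most 12.5), and S1-12 for DCHS2 (3.68 CPM, others at most 0.359). The level of DCHS2 in S1-12 comes from 2 counts.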

How the results depend on the processing

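No paired analysis was possible because the labels give no replicate numbers, and those used here follow the order of the accessions. In FS, with 3 genes higher and 1 lower in the fit reported, library totals alone gave 0 lower (CELSR3 lost). Without a count minimum 6 were higher, with CDH10, CDH16 and PCDH9 added. DESeq2 gave 6 higher (adding CDH13, CDH17 and PCDH9) and 2 lower (adding DCHS2), as well as 1 higher in PNST (CELSR3) and 1 lower in PWT (CDH24). Grouping by histology gave 0 higher and 0 lower in FS, as did S2 tumors alone, where only 13 of the 23 genes were tested, FS had 1 tumor and 93 of all genes were called. Without the tumors with epidermal markers 2 were higher (CDH24 lost) and 0 lower, with 1020 of all genes called, and without those with skeletal muscle markers 1 was higher (PCDH18) and 0 were lower, with 657 of all genes called. With 1 tumor left out at a time, between 0 and 4 genes were higher and between 0 and 1 lower in FS, and 0 in the other 3 comparisons. The count fell to 0 higher without S1-11 and to 0 lower without S1-02 or S1-11. Without S1-12, DCHS2 was called in place of CELSR3 and CDH13 in place of CDH24. The cause was not tested. CDH24 missed the count minimum among S2 tumors alone and has no value there.

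No called gene changed sign under any alternative, but the size of the change did not always hold. Among S2 tumors, with S2-06 as the only FS, it was -0.06 for CELSR3 and 0.19 for PCDH18. With the prefix as a term all 4 genes were called in FS, as with S1-04 and S1-05 summed and without S1-10 and S2-08. At 507728 counts in S1-12, levels under 5.52 CPM rest on fewer than 3 counts.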
